A study of Mus musculus with 12 samples.

Results

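mmu-miR-10a, mmu-miR-10b, mmu-miR-196a and mmu-miR-196b are 4 guide-strand microRNAs (miRNAs) of the miR-10 and miR-196 families, whose genes lie inside the mouse Hox clusters. They were chosen by name among 650 miRNA names on the array, 611 of them from mouse, with earlier results of these data in view: a higher level of mmu-miR-196a in untreated ATF4-deficient cells was already known. The difference between genotypes without treatment is therefore given as a description, with no test. ATF4 is a transcription factor whose translation rises during endoplasmic reticulum (ER) stress, and tunicamycin provokes that stress by blocking N-linked glycosylation of proteins.

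The cells were mouse embryonic fibroblasts (MEFs) of C57BL/6 background, either ATF4 wild type (WT) or ATF4-deficient (KO). Each genotype was left untreated or received tunicamycin at 2 ug/mL for 12 h or 24 h, which gave 6 groups of 2 arrays. The submitters describe the replicates as independent experiments. The labels give neither the number of embryos or lines behind each genotype nor how the deletion was made, so line and genotype cannot be told apart, and the array has no probe for the Atf4 messenger RNA that would check the labels. In total RNA, fewer cells that contain a miRNA and less of it per cell cannot be told apart.

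Hox genes encode the transcription factors that fix position along the body axis, and the miRNAs between them are transcribed in overlapping domains of the embryo. Fibroblasts keep a Hox pattern of their place of origin in culture. Members of the miR-10 and miR-196 families pair with Hox messenger RNAs and lower their output, with Hoxb8 the best known target of miR-196. In the RefSeq annotation of GRCm38.p6, Mir10a lies between Hoxb5 and Hoxb4 on chromosome 11, within the span of a longer Hoxb3 gene model. Mir10b lies on chromosome 2 within the spans of Hoxd3 and Hoxd4. The miR-196a guide is made from 2 genes, Mir196a-1 between Hoxb13 and Hoxb9 on chromosome 11 and Mir196a-2 between Hoxc10 and Hoxc9 on chromosome 15. Mir196b lies between Hoxa9 and Hoxa10 on chromosome 6. The 4 members thus come from all 4 Hox clusters, and an array signal for miR-196a is the sum over its 2 genes.

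The mature sequences, shown because the members of a family differ at a single base, are from RefSeq on GRCm38.p6, where these guide strands carry the ending -5p. Capitals mark the seed, bases 2 to 8 from the 5′ end, which does most of the pairing with a target. Mir10a gives its guide from chr11:96317186-96317208 on the + strand, and Mir10b from chr2:74726074-74726096 on the + strand. The miR-196a guide comes from chr11:96265187-96265208 and chr15:102973365-102973386, both on the + strand, with the same letters, and the miR-196b guide from chr6:52230129-52230150 on the - strand.
mmu-miR-10a: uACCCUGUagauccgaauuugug
mmu-miR-10b: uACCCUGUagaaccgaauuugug
mmu-miR-196a: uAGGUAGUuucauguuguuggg
mmu-miR-196b: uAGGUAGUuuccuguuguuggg
mmu-miR-100: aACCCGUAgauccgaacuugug

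Both miR-10 guides have 23 bases and differ by U12A (the base in miR-10a, its position from the 5′ end, the base in miR-10b). Both miR-196 guides have 22 bases and differ by A12C, written the same way. Each pair shares its seed, ACCCUGU for miR-10 and AGGUAGU for miR-196. mmu-miR-100 is printed because it resembles miR-10 outside its seed, which is ACCCGUA, as in mmu-miR-99a and mmu-miR-99b. How far a probe for one member also captured RNA of its 1-base neighbour was not tested.

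Every member had 20 spots on each array, spread over 4 probes for mmu-miR-196a and 2 probes for each of the other 3. The signal of a miRNA adds up its probes, each as the mean intensity of its spots after background subtraction, so it can fall below 0. A miRNA counted as well above background on an array when at least 50% of the spots of a probe carried the scanner software's flag for it. The arrays had 92 to 164 mouse miRNAs well above background, and their number, 12, limits the precision. For tests each array was scaled to the 75th percentile of a common set, the 82 miRNAs that passed this limit on every array. Scaled signals under a floor of 0.0328, -4.93 on the log2 scale, were set to it before taking log2. Scaled log2 values below refer to that quantity.

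The KO 24 h replicate 2 array stood apart in the miRNAs it had well above background. It had 15 mouse miRNAs well above background there and on no other array, 2.45% of the 611, against 0 to 5 on each other array. Genotype differences of the miR-196 members that use it are given with and without it. Across the 145 tested miRNAs the 2 arrays of a group correlated at 0.69 in WT at 12 h, 0.75 in KO at 12 h, 0.94 in WT at 24 h and 0.80 in KO at 24 h, so the 12 h replicates were the least alike. Untreated arrays were all on one slide and tunicamycin arrays all on another, so slide and treatment cannot be told apart. WT arrays were all in the first row of their slide and KO arrays all in the second, so slide row and genotype cannot be told apart either. Each scan date held both genotypes at 1 replicate number. KO 24 h replicate 2 correlated at 0.93 with WT 24 h replicate 2 and 0.91 with KO 12 h replicate 2. These arrays share its scan date, as does WT 12 h replicate 2, at 0.89. With its own replicate it had 0.80, and with the remaining arrays 0.76 to 0.86. The fibroblast marker list had 6 to 7 of its 8 miRNAs well above background on every array, whereas epithelial, neural and blood lists had 0 of 7, 0 of 4 and 0 of 6 on every array. The muscle, endothelial and pluripotent lists each had at most 1 miRNA well above background on an array.

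**Figure D1:**
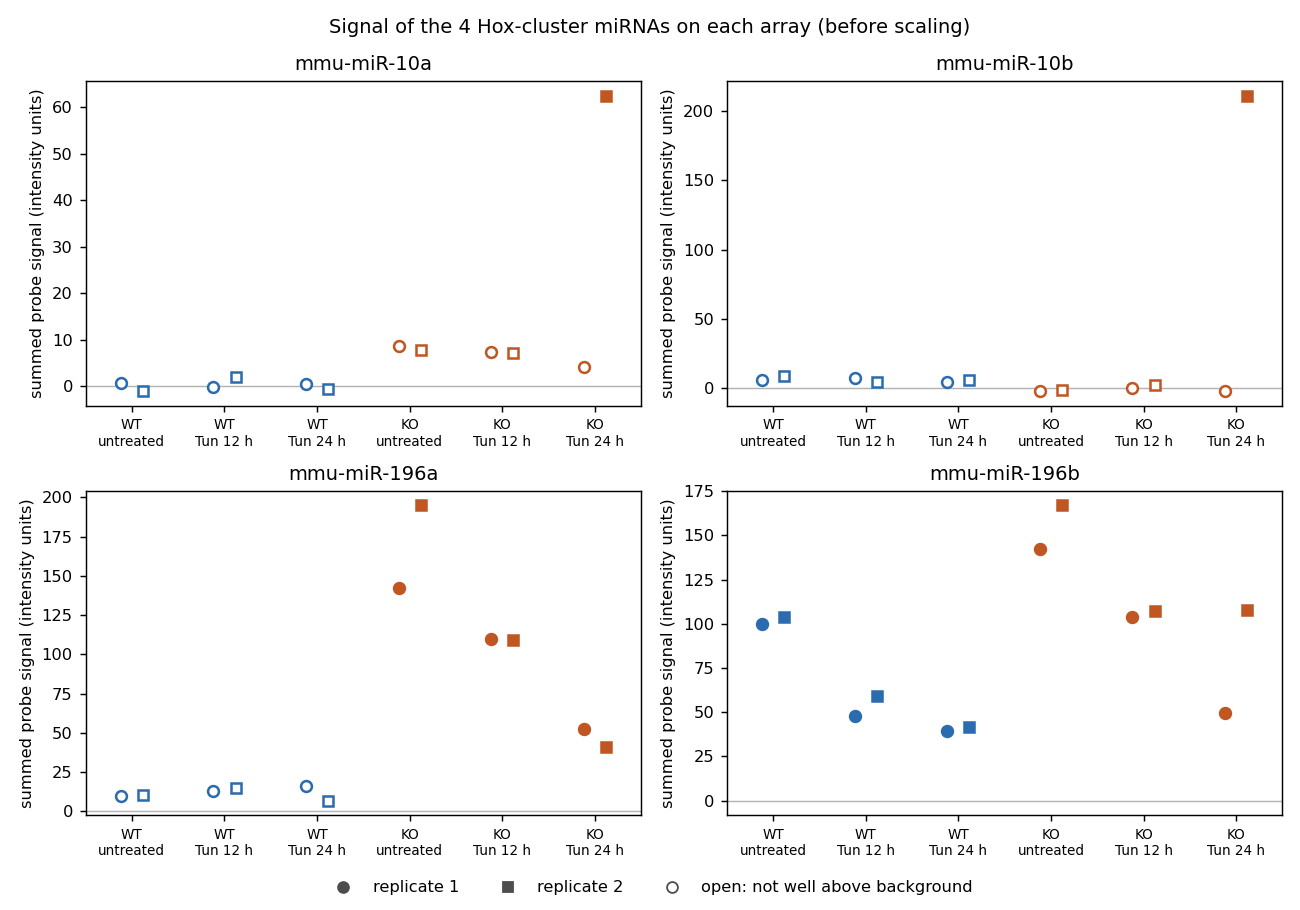
Summed probe signal (intensity units, before scaling) of each member on the 12 arrays by group, with WT in blue and KO in orange; each point is 1 array, circles are replicate 1, squares replicate 2, and open symbols were not well above background. mmu-miR-196a was filled on 6 KO and 0 WT arrays, mmu-miR-196b on all 12, and both miR-10 members on KO 24 h replicate 2 alone.

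miR-196a separated the genotypes in every condition. Its signal in WT was 9.99 and 10.7 untreated, 13.1 and 14.9 at 12 h, and 15.9 and 6.89 at 24 h, none of it well above background. In KO it was 142 and 195 untreated, 110 and 109 at 12 h, and 52.2 and 41.1 at 24 h, well above background on each of the 6 arrays. The lowest KO array lay above the highest WT array. It was the only 1 of 611 mouse miRNAs, 0.164%, that was well above background on 6 KO and 0 WT arrays, a count that includes the untreated arrays used in its choice and supports nothing. On the tunicamycin arrays alone, 2 of 611 miRNAs, 0.327%, were well above background on 4 KO and 0 WT arrays; the other was mmu-miR-34c, named after its values were seen.

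The 4 probes of mmu-miR-196a gave the same order with 1 exception. Probe 2 gave 1.62 to 3.82 on WT arrays and 9.60 to 49.3 on KO arrays. Probe 3 gave -0.578 to 4.30 against 14.0 to 58.4, and probe 4 gave 2.27 to 5.73 against 14.1 to 66.4. Probe 1 gave -0.485 to 4.39 in WT and 3.41 to 20.9 in KO, and its ranges overlapped: both KO 24 h arrays, at 4.15 and 3.41, fell among the WT values. Probes were not compared with each other, since probes differ in how strongly they bind.

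On the scaled log2 scale mmu-miR-196a lay at the floor on 5 of the 6 WT arrays, and WT 24 h replicate 1 read -4.18. The KO arrays read -2.32 and -2.02 untreated, -2.23 and -1.94 at 12 h, and -1.96 and -3.78 at 24 h. KO 24 h replicate 2 was the lowest of the KO arrays by more than 1 log2 unit, while the other 5 KO arrays lay between -2.32 and -1.94. Before scaling, the KO 24 h arrays read 52.2 and 41.1, so most of the gap between them came with the scaling. The 75th percentile was 203.5 on replicate 1 and 566.3 on replicate 2. On KO 24 h replicate 2, 5 of 19 usable spots were well above background, against 15 to 20 on the other KO arrays. There 1 further spot, at 137, had been set aside as an outlier by the scanner software.

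In untreated cells the KO minus WT difference of mmu-miR-196a was 2.76 ± 0.54 log2 (SE, n = 2 and 2). Since WT was not well above background, the level in KO was at least 6.55-fold higher in this processing. This bound sets the KO mean against the higher, on each WT array, of its own value and the lowest level well above background. Like the bounds below, it leaves out the spread between arrays and holds for this processing alone. Over the alternatives that leave out no array, the difference ran from 0.34, with a background correction added after seeing the data, to 3.61. Both untreated KO arrays lay above both WT arrays, as they did for 25 of the 145 miRNAs tested, 17.2%. No weight is put on that difference, which entered the choice of the miRNA.

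Under tunicamycin the genotypes were compared on arrays other than the untreated ones. All arrays shared the filter, the scaling set and the estimate of spread, and earlier results of these data were known. The comparison is therefore not independent of the choice of members. mmu-miR-196a was among the 145 tested miRNAs only through its KO groups, and 3 of its 4 WT tunicamycin values are the floor itself, so the filter and the floor favour a call and its p-values are no independent support. At 12 h mmu-miR-196a was 2.84 ± 0.54 log2 higher in KO (SE, n = 2 and 2, limma with Benjamini-Hochberg adjustment over 145 miRNAs, adjusted p = 0.0116), at least 7.09-fold. At 24 h the difference was 1.68 ± 0.54 and missed the threshold of 0.05 (limma, adjusted p = 0.0854), with a bound of at least 2.95-fold. It was 2.59 without KO 24 h replicate 2 (limma, adjusted p = 0.00223), at least 5.54-fold, and 0.77 without replicate 1 (limma, adjusted p = 0.148), with the lone KO array assumed to vary like the other groups. Over both times together the difference was 2.26 ± 0.38 (limma, adjusted p = 0.00444), at least 4.57-fold. Without KO 24 h replicate 2 it was 2.72. With all 611 mouse miRNAs tested and no filter, the adjusted p was 0.105 at 12 h and 0.0394 over both times (limma). Without either KO 12 h array the 12 h call was lost, at adjusted p = 0.0597 without replicate 1 and 0.0617 without replicate 2 (limma). With another background correction, normexp, its difference was 0.44 at 12 h, -0.56 at 24 h and -0.06 over both times, none of them called.

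miR-196b was measured in both genotypes and was higher in KO under tunicamycin. In WT its signal was 99.6 and 104 untreated, 47.9 and 59.2 at 12 h, and 39.5 and 41.5 at 24 h. In KO it was 142 and 167 untreated, 104 and 107 at 12 h, and 49.3 and 108 at 24 h. All 12 arrays were well above background. Before scaling the genotypes did not overlap within any condition, a pattern that was not counted over the other miRNAs. However, the lowest KO array, KO 24 h replicate 1, lay below both untreated WT arrays and WT 12 h replicate 2.

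After scaling, mmu-miR-196b in WT read -2.53 and -2.42 untreated, -3.17 and -3.27 at 12 h, and -2.87 and -3.09 at 24 h. The KO values were -2.33 and -2.24 untreated, -2.31 and -1.97 at 12 h, and -2.04 and -2.39 at 24 h. All 6 KO arrays lay above all 6 WT arrays, narrowly, with -2.39 as the lowest KO value and -2.42 as the highest WT value. The same held for mmu-miR-196a and for 4 of the 145 tested miRNAs in all, 2.76%. Before scaling, its probe 1 gave 11.6 to 30.5 in WT and 14.0 to 52.6 in KO, and probe 2 gave 27.8 to 73.2 and 35.3 to 115, ranges that overlapped across conditions.

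**Figure D2:**
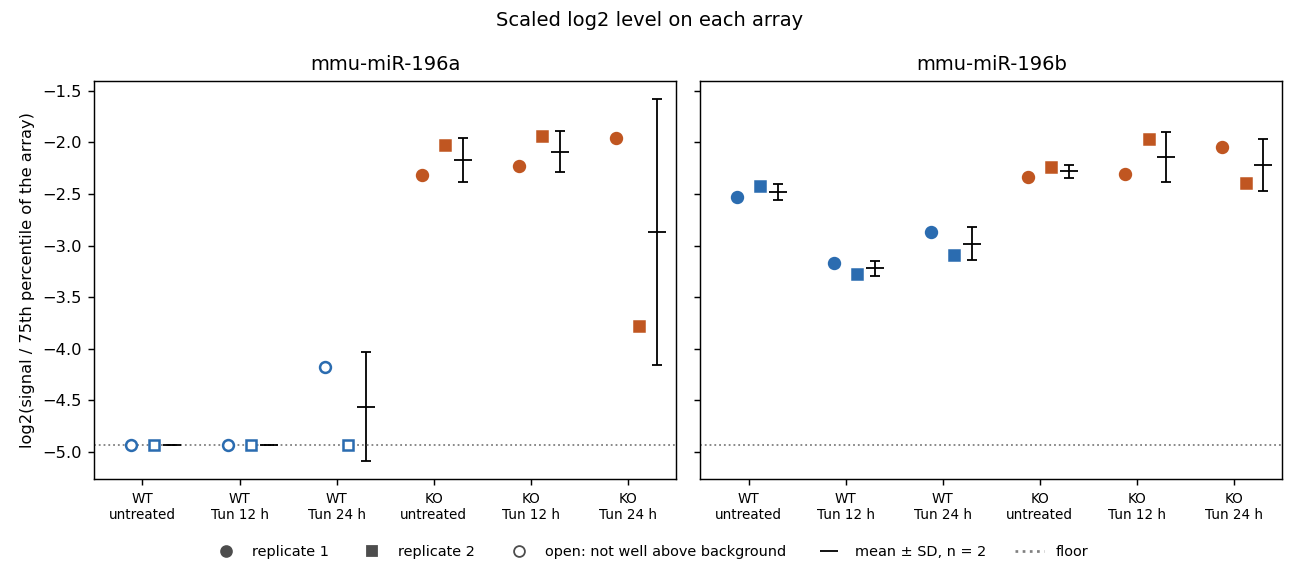
Scaled log2 level (signal over the 75th percentile of the array) of mmu-miR-196a and mmu-miR-196b on the 12 arrays; points are arrays, black marks the mean ± SD of each group (n = 2) and the dotted line the floor at -4.93. The WT arrays of mmu-miR-196a sit at the floor except one at -4.18, and those of mmu-miR-196b lie at -2.53 and -2.42 untreated and between -3.27 and -2.87 under tunicamycin.

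Untreated, the KO minus WT difference of mmu-miR-196b was 0.19 ± 0.16 log2 (SE, n = 2 and 2). The median over the 145 tested miRNAs in that comparison was -0.49, so mmu-miR-196b stood 0.68 above it and mmu-miR-196a 3.25 above it. Other scalings moved that median to between -0.21 and 0.00, and mmu-miR-196b then stood 0.72 to 0.87 above it. The untreated difference itself was 0.75 with the 75th percentile over all mouse miRNAs, 0.52 with the array median, 0.77 with quantile normalization and 0.60 without scaling. The same scalings gave 0.76, 0.91, 0.94 and 0.99 at 12 h, so how far the 12 h difference exceeded the untreated one depends on the scaling. At 24 h they gave 0.26, 0.74, 0.66 and 0.85. The 24 h values of 0.26 and 0.66 lay below the untreated ones and the others above. At 12 h of tunicamycin mmu-miR-196b was 1.08 ± 0.16 higher in KO (limma, adjusted p = 0.00512), 2.12-fold. At 24 h the difference was 0.76 ± 0.16 (limma, adjusted p = 0.0215), 1.70-fold, and over both times 0.92 ± 0.11 (limma, adjusted p = 0.00141), 1.89-fold. Without KO 24 h replicate 2 it was 0.94 at 24 h and 1.01 over both times. With normexp the differences at 12 h, at 24 h and over both times were 0.41, -0.26 and 0.07. None of them was called, and the untreated difference was 0.76.

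Of the members, mmu-miR-196b alone was in the tested set through both genotypes. It was called higher in KO at 12 h, where 14.5% of the 145 tested miRNAs were called higher, at 24 h, where 7.59% were, and over both times, where 18.6% were. The median difference over all tested miRNAs was 0.03 over both times. The genotype calls over both times split into 27 higher and 22 lower, and into 12 and 20 with the array median as the scale, 15 and 6 without scaling.

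Each scan date held both genotypes, which allowed the difference to be read within a date. Within replicate 1, KO minus WT for mmu-miR-196a was 2.61 untreated, 2.70 at 12 h and 2.22 at 24 h. Replicate 2 gave 2.91, 2.99 and 1.15, so every one of these pairs had the higher value in KO. For mmu-miR-196b the replicate 1 values were 0.21, 0.86 and 0.82, and the replicate 2 values 0.18, 1.30 and 0.70, again all positive. The untreated pairs entered the choice of members, and most WT values of mmu-miR-196a are the floor itself, which favours a higher value in KO. How many of the tested miRNAs had all pairs in 1 direction was not counted, so the signs are a description only. A fixed block for scan date cannot move these differences, since each date held the same conditions in both genotypes, and only their standard errors and p-values can change. The calls at 12 h and over both times were kept under it. The 24 h call of mmu-miR-196b was lost under that block (limma, adjusted p = 0.0554). It was also lost without WT 24 h replicate 1, KO 24 h replicate 1 or WT 24 h replicate 2, at adjusted p = 0.0667, 0.0540 and 0.130 (limma).

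The response to tunicamycin was read against the untreated arrays of the same genotype. These arrays serve as reference for both times, and their difference between genotypes entered the choice of members. In WT, mmu-miR-196b fell by 0.74 ± 0.16 log2 at 12 h (limma, adjusted p = 0.0143), where 30.3% of the tested miRNAs were called lower. Of the 45 calls there, 44 were lower and 1 higher, and the median over all tested miRNAs was -0.32. At 24 h its WT difference was -0.50 ± 0.16 (limma, adjusted p = 0.0823), with 15.2% called in either direction. The 12 h call was lost without WT untreated replicate 1, WT untreated replicate 2 or WT 12 h replicate 2, at adjusted p = 0.0547, 0.0794 and 0.0717 (limma).

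In KO neither tested member passed the threshold at either time. The difference of mmu-miR-196b was 0.15 ± 0.16 at 12 h (limma, adjusted p = 0.763) and 0.07 ± 0.16 at 24 h (limma, adjusted p = 0.845). Few miRNAs were called in KO at all, 1.38% at 12 h and 2.76% at 24 h. For mmu-miR-196a the KO difference was 0.08 ± 0.54 at 12 h (limma, adjusted p = 1) and -0.70 ± 0.54 at 24 h (limma, adjusted p = 0.492). The 24 h value rested on the array that stood apart: it was 0.21 without KO 24 h replicate 2 and -1.61 without replicate 1 (limma, adjusted p = 0.0133). In WT the same miRNA was not well above background on any array. Its fitted WT differences of 0.00 and 0.37 rest on 5 values at the floor and 1 above it.

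The difference between the responses subtracts the untreated difference between genotypes, which entered the choice of members, so it is given as a description with no p. For mmu-miR-196b the response at 12 h was higher in KO than in WT by 0.89 ± 0.23 log2 (SE). In the limma fit it passed the threshold as higher, as did 20.7% of the tested miRNAs, and with scan date as a fixed block it did not; nothing is read from either. The median of that comparison over all tested miRNAs was 0.48, so mmu-miR-196b stood 0.41 above it. The fitted value was 0.39 with the array median as the scale and 0.01 with the 75th percentile over all mouse miRNAs, neither of them past the threshold. At 24 h it was 0.57 ± 0.23 and did not pass, with 8.28% called in either direction. For mmu-miR-196a the values were 0.08 ± 0.76 and -1.08 ± 0.76, both of which use WT levels at the floor. Leaving out any one of 9 of the 12 arrays left the 12 h value of mmu-miR-196b short of the threshold. Those were both untreated WT, both WT 12 h, both WT 24 h and both untreated KO arrays, and KO 12 h replicate 2, with fitted values of 0.72 to 0.94.

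**Figure D3:**
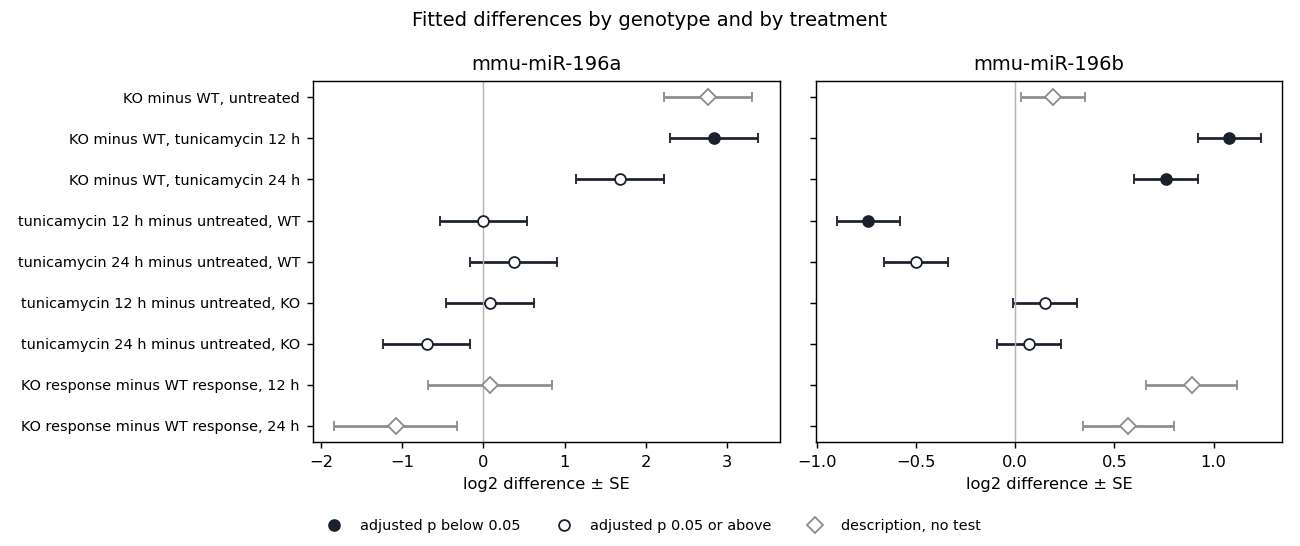
Fitted log2 differences ± SE of mmu-miR-196a and mmu-miR-196b for 9 comparisons, genotype first, then treatment within each genotype, then the difference between responses; filled circles passed adjusted p below 0.05 in limma, open circles did not, and grey diamonds are descriptions without a test (untreated genotypes and differences between responses). The horizontal scales of the panels differ. Genotype differences under tunicamycin lie at 1.68 to 2.84 for mmu-miR-196a and 0.76 to 1.08 for mmu-miR-196b.

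miR-10a was near 0 in WT and above it in KO, but below the limit of the flag on 11 arrays. The signals of mmu-miR-10a in WT were 0.788 and -0.992 untreated, -0.0566 and 1.96 at 12 h, and 0.574 and -0.550 at 24 h. In KO they were 8.61 and 7.89 untreated, 7.49 and 7.27 at 12 h, and 4.15 and 62.4 at 24 h. Every KO array lay above every WT array, an order that was not counted over the other miRNAs and supports nothing by itself. A weaker flag of the software marks a spot as positive and significant over its background. It was set on 14 of 119 usable spots in WT and on 63 of 94 in KO without KO 24 h replicate 2, a description that was not tested. Both probes showed the separation, with 2.49 to 6.49 on probe 2 in those 5 KO arrays against -0.761 to 1.12 in WT.

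miR-10b had the opposite order at the same low intensity. The signals of mmu-miR-10b in WT were 6.16 and 8.63 untreated, 7.34 and 4.56 at 12 h, and 4.69 and 5.83 at 24 h. In KO they were -1.63 and -0.785 untreated, 0.411 and 2.49 at 12 h, and -1.90 and 211 at 24 h. Leaving aside KO 24 h replicate 2, every WT array lay above every KO array, and the positive-and-significant flag was set on 69 of 114 usable spots in WT against 11 of 97 in KO. Neither the order nor the flags were counted over the other miRNAs or tested. Spots on the same array are not separate samples. The ranges on probe 2 were 3.03 to 4.89 in WT and -1.26 to 0.555 in those KO arrays, whereas on probe 1 they overlapped, at 1.01 to 3.84 and -1.20 to 1.93. None of these 11 values was well above background, so no fold and no test are given for mmu-miR-10a or mmu-miR-10b, and neither was among the 145 miRNAs tested.

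KO 24 h replicate 2 was the exception for both miR-10 members. mmu-miR-10a read 62.4 there, with 19 of 20 spots well above background, against 4.15 on the other KO 24 h array. mmu-miR-10b read 211, with 19 of 19 usable spots well above background, against -1.90. On the scaled log2 scale the 2 values were -3.18 and -1.43, and all other arrays lay at the floor. Both probes of each miRNA rose on this array, to 19.9 and 42.4 for mmu-miR-10a and to 64.8 and 146 for mmu-miR-10b. Both belong to the 15 mouse miRNAs well above background on that array alone, and what sets the array apart was not tested.

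**Figure D4:**
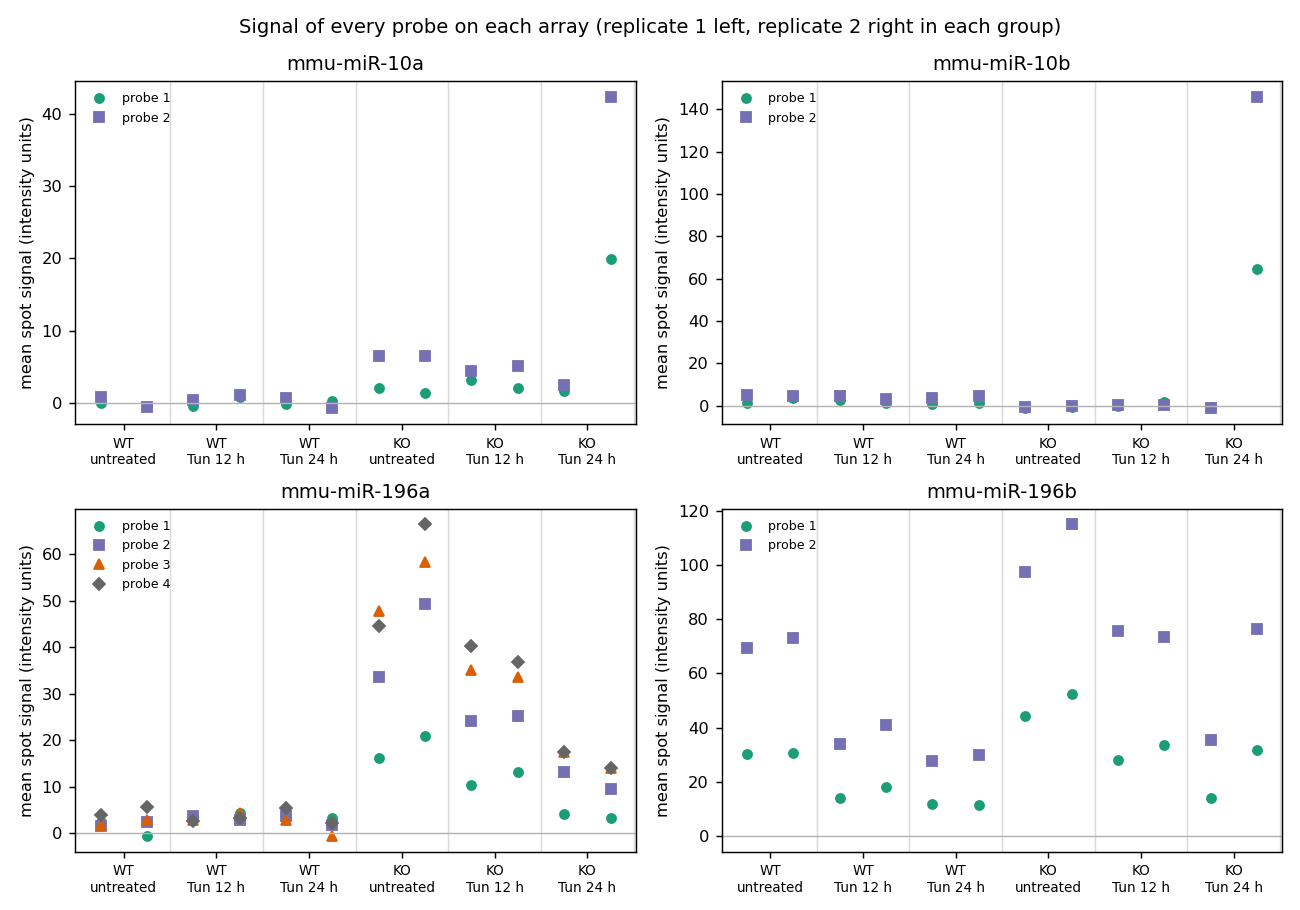
Mean spot signal (intensity units) of each probe of the 4 members on every array, by group, with replicate 1 at the left and replicate 2 at the right of a group; colours and shapes mark probes. Both probes of mmu-miR-10a and of mmu-miR-10b are high on KO 24 h replicate 2 alone, and 3 of the 4 mmu-miR-196a probes separate the genotypes on all arrays.

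The other Hox-cluster names on the array gave little signal. The passenger strands mmu-miR-10a*, mmu-miR-10b* and mmu-miR-196a* were below 0 on all 12 arrays, as was mmu-miR-615-5p, whose gene Mir615 lies within Hoxc5. mmu-miR-615-3p was not well above background on any array. Its highest signals were 35.2 on WT 12 h replicate 2 and 20.1 on KO 12 h replicate 2, with -2.72 to 8.69 on the other 10 arrays.

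mmu-miR-99a, mmu-miR-99b and mmu-miR-100, the relatives of miR-10 with another seed, lie outside the Hox clusters and were all tested. At 12 h of tunicamycin 1 of 3 was called higher in KO and 1 lower, beside 21 higher and 15 lower among the 145 tested miRNAs. mmu-miR-99a was 1.35 ± 0.37 log2 higher in KO (limma, adjusted p = 0.0377), at least 2.52-fold, with both WT arrays at the floor and not well above background, and mmu-miR-99b was lower, at -0.70 ± 0.17 (limma, adjusted p = 0.0289). mmu-miR-100 differed by -0.02 ± 0.27 (limma, adjusted p = 1). At 24 h none of the 3 passed, where 11 of the 145 were called higher and 11 lower. Over both times 1 of the 3 was higher and 1 lower again, beside 27 and 22 of the 145. The median of the 3 was then -0.43, beside 0.03 over all tested miRNAs.

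Among the 145 tested miRNAs, those whose scaled log2 values over the 12 arrays were most like mmu-miR-196a were mmu-miR-218 (Pearson r = 0.94), mmu-miR-193b (0.91) and mmu-miR-199a-5p (0.91). For mmu-miR-196b they were mmu-miR-26a (0.92), mmu-miR-214 (0.89) and mmu-miR-199b* (0.89). mmu-miR-196a and mmu-miR-196b had r = 0.81 with each other. These are descriptions over arrays that share groups, scan dates and the scaling, and mmu-miR-218 was well above background on 4 KO arrays and 1 WT array only. The group means of mmu-miR-199a-5p were -2.39, -3.50 and -3.46 in WT and 0.04, -0.88 and -1.39 in KO for untreated, 12 h and 24 h. mmu-miR-26a had -1.28, -2.49 and -2.46 in WT and -1.16, -1.10 and -1.36 in KO. Its lowest means were those of the WT tunicamycin groups, as for mmu-miR-196b.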

How the data were processed

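Total RNA from the 12 MEF samples was labelled with Cy3 and read on Agilent 1-colour miRNA arrays with Agilent Feature Extraction 10.7.1.1, per the submitters' processing notes. Per the file headers, the spot values deposited by the authors are intensity in arbitrary units, background-subtracted and not scaled between arrays, with flags of 0 or 1. The genome build behind the probes is not given in the sources used here. The authors' deposited table of values, in log2, equalled the log2 of their total gene signal, an intensity per miRNA, to within 1.2e-06 over 1849 values, with no scaling or centring. Its column medians ran from 5.44 to 6.90.

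From these, control spots and spots set as outliers were left out and a miRNA's signal was the sum over probes of mean spot signals. The 75th percentile used for scaling ran from 203.5 to 791.2. Tests covered 145 mouse miRNAs, those that passed the background flag on both arrays of 1 or more groups. A single limma 3.58.1 fit (lmFit, eBayes, in R 4.3.3) over all 6 groups left 6 residual degrees of freedom, and 9 comparisons were each adjusted over 145 miRNAs (Benjamini-Hochberg, threshold 0.05). The fit was tried on simulated independent values with no floor and no effect of scan date, so that trial does not cover those features of these data. Members, lists, alternatives and the naming rule (all 4 members, other Hox-cluster names, the miR-99 and miR-100 relatives, and the 3 most similar miRNAs) were chosen with earlier results of these data known. The normexp alternative used median spot signals, since the files hold no mean signal, with an offset of 50. Deviations of same-numbered samples from their group means correlated at 0.682, 0.951 and 0.83 between genotypes untreated, at 12 h and at 24 h, which share a scan date, and at -0.542 to -0.238 between untreated and tunicamycin groups, which do not. Since not every pair was above 0.1, the numbers were not taken as pairs, and scan date was an alternative block.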

Additional observations from a re-analysis of the deposited data

Results flagged for a closer look

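The response of mmu-miR-196b to 12 h of tunicamycin differed between the genotypes by 0.89 log2 in the fit of the difference itself, which uses the untreated arrays whose genotype difference entered the choice of members. The median over all tested miRNAs was 0.48 in that comparison. Over the alternatives that leave out no array, the value of mmu-miR-196b ran from -0.35 to 0.89.

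mmu-miR-10a, which was too dim to be tested, read 62.4 on KO 24 h replicate 2, and mmu-miR-10b read 211 on the same array, both above all WT arrays, which reached 1.96 and 8.63.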

How the results depend on the processing

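The direction of the genotype difference under tunicamycin held at 12 h for both miR-196 members under all alternatives, at 0.44 to 3.06 log2 for mmu-miR-196a and 0.41 to 1.08 for mmu-miR-196b when no array was left out. As stated above, the filter and the floor favour a call of mmu-miR-196a, so its calls counted below are no independent support. Of the 2 tested members, the number called higher in KO at 12 h fell from 2 to 1 with the authors' total gene signal, the deposited log2 table, no scaling, a higher floor, no filter on dim miRNAs, only miRNAs well above background on all arrays (which leaves mmu-miR-196a out) or the compared arrays alone. It fell to 0 with normexp, with a normexp fit that leaves out spots whose local background is outlying (an alternative added after seeing the data), with the 75th percentile over all mouse miRNAs and with quantile normalization. At 24 h the 1 call was replaced by 0 with both normexp fits, the 75th percentile over all mouse miRNAs, the median scale, quantile normalization, no filter, the compared arrays alone and scan date as a fixed block. With total gene signal, the deposited table and no scaling it was mmu-miR-196a, not mmu-miR-196b, that was called at 24 h. Over both times the number fell from 2 to 0 with both normexp fits, the 75th percentile over all mouse miRNAs and quantile normalization, and to 1 with only miRNAs well above background on all arrays. The fall of mmu-miR-196b in WT at 12 h lost its call (0) with both normexp fits, total gene signal, the brightest probe, the deposited table, all other scalings and no filter, and the value between responses at 12 h no longer passed (0) with the same except the brightest probe, and with the fixed scan block. Calls appeared without scaling: 1 in WT at 24 h, 2 in KO at 24 h and 1 between the responses at 24 h; in KO at 24 h total gene signal and the deposited table gave 1. Untreated, the number of members with a positive KO minus WT value fell from 2 to 1 in the added normexp fit and with only miRNAs well above background on all arrays.

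Values that changed sign were as follows. With normexp, mmu-miR-196a gave -0.56 for KO minus WT at 24 h, -0.06 over both times, -0.68 in KO at 12 h and -0.91 between the responses at 12 h, and mmu-miR-196b gave -0.26 at 24 h, 0.62 in WT at 24 h, -0.52 and -0.40 in KO at 12 h and 24 h, and -0.35 and -1.02 between responses. The added normexp fit gave mmu-miR-196b -0.05 untreated and 0.14 in WT at 24 h, and mmu-miR-196a 0.36 in KO at 24 h. Total gene signal and the deposited table gave mmu-miR-196a 2.49 in KO at 24 h (called) and 2.49 between the responses at 24 h, and mmu-miR-196b -0.04 in KO at 24 h. In KO at 12 h the 75th percentile over all mouse miRNAs, the median, quantile normalization and no scaling gave mmu-miR-196a -0.67, -0.12, -0.54 and -0.61 and mmu-miR-196b -0.61, -0.06, -0.50 and -0.55. The same 4 scalings gave mmu-miR-196b -0.76, -0.18, -0.63 and -1.08 in KO at 24 h, the last of them called, and mmu-miR-196a -1.02, -0.22, -0.54 and -0.61 between the responses at 12 h. A lower floor gave the latter -0.54. Between the responses at 24 h, mmu-miR-196b gave -0.49 with the 75th percentile over all mouse miRNAs and -0.12 with quantile normalization. The cause of these changes was not tested.

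Leaving out each array in turn, the number of members called ranged from 1 to 2 at 12 h, from 0 to 2 at 24 h, and stayed at 2 over both times; it ranged from 0 to 1 for WT at 12 h, WT at 24 h, KO at 24 h and both differences between responses. The values that changed sign had ranges of -0.06 to 0.23 for mmu-miR-196a in KO at 12 h and between the responses at 12 h, -1.61 to 0.21 for it in KO at 24 h, and -0.03 to 0.32 and -0.11 to 0.24 for mmu-miR-196b in KO at 12 h and 24 h. With the replicate number as a block no call of a member changed. The block cannot move the differences themselves: mmu-miR-196a had 2.26 and mmu-miR-196b 0.92 over both times, with adjusted p = 0.00634 and 0.00262 in limma. With the block the count of calls over all tested miRNAs moved from 45 to 51 in WT at 12 h, from 22 to 28 in WT at 24 h and from 4 to 2 in KO at 24 h. Over the alternatives that leave out no array it ran from 0 to 52 for the genotype over both times (49 as reported), 0 to 42 at 12 h (36), 0 to 26 at 24 h (22), 0 to 51 in WT at 12 h (45), 0 to 63 in WT at 24 h (22), 0 to 18 and 0 to 55 in KO (2 and 4), and 0 to 47 and 0 to 23 between responses (33 and 12). Leaving out each array it ran from 30 to 60 over both times, 12 to 49 at 12 h, 5 to 44 at 24 h, 19 to 61 and 9 to 47 in WT, 1 to 14 and 1 to 37 in KO, and 10 to 48 and 6 to 34 between responses. Signal over background limits mmu-miR-10a, mmu-miR-10b and, in WT, mmu-miR-196a, so a count of members that stays the same does not show that mmu-miR-196a is a stable result.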

Other observations

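The deposited values of some members are not the sum of the authors' own probe signals. For mmu-miR-196a the total gene signal was 164 and 142 on the KO 24 h arrays, 9.47 and 10.2 times the summed total probe signals of 17.3 and 13.8, while on the other 4 KO arrays both quantities were equal. mmu-miR-10b was listed as detected on WT 12 h replicate 1 with a total gene signal of 49.5 against a probe sum of 4.87. mmu-miR-615-3p was listed at 9.31 and 8.63 on the log2 scale on WT 12 h replicate 2 and KO 12 h replicate 2, where it was not well above background. Over all 1849 detected values, 66.6% equalled the probe sum within 1% and 28.7% exceeded it by more than 1.5 times. With that table the KO minus WT difference of mmu-miR-196a at 24 h was 4.08 on the log2 scale, against 1.68 from the probe signals. The cause was not tested.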
